A study of Rattus norvegicus with 90 samples.

Results

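Cultured rat kidney cells exposed for 9 h to 0.125 mM thioacetamide-S-oxide, the lower of the doses given to these cells, were compared with cells that received vehicle for the same time. The comparison took every library whose label gives kidney tubule cells, 9 h, and either vehicle or the low dose, which came to 10 of 90 libraries, 5 in each group. Both groups are Sprague-Dawley cells labelled as renal tube epithelial cells, and the methods of the study describe them as proximal tubular epithelial cells bought frozen. The vehicle was the maintenance medium of these cells, without the compound. Poly-A RNA was sequenced in all groups, and the series also holds hepatocytes and cardiomyocytes, a second time of 24 h and a second dose, 0.500 mM in the renal cells. The labels do not say that the 5 libraries of a group came from separate animals or separate batches of cells, so the p-values measure only the spread between these libraries, which may be technical. A culture of tubule cells has no blood flow and lacks the structure of a whole nephron. The comparison addresses how these kidney cells respond early to a mild exposure.

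Thioacetamide is a liver toxicant that does little until it is oxidised. Cytochrome P450 and flavin monooxygenase enzymes convert it to thioacetamide-S-oxide and then to a further oxide that binds proteins and lipids, and adding the S-oxide to a culture supplies the compound after that first step. Proximal tubule cells reabsorb most of the filtered sugar, amino acids and salt, take up many foreign compounds through their transporters, and are a frequent site of injury by toxicants in the kidney. The deposited tables list transcripts by Ensembl identifier with no gene names, and 0 of the 40071 identifiers could be paired with a gene name here. The markers of the proximal tubule and of other cell types could therefore not be checked, and the account below goes by transcript. Up to 2 transcripts in each direction are named.

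The 10 libraries were of similar depth. Total estimated counts, the reads that the pseudo-aligner assigned to its targets, ranged from 23108516 to 30970392 in the vehicle group and from 21234086 to 31193747 in the low-dose group. Low-dose library MS-130 held 20449 transcripts with at least 1 count, against 22056 to 22614 in the other 4 low-dose libraries. The low-dose libraries were also less alike: the median SD of a transcript's log2 level, in CPM (counts scaled to the library total), was 0.135 over the 5 low-dose libraries and 0.0906 over the 5 vehicle libraries. It was 0.118 without library MS-130 and 0.121 without library MS-126. With library MS-130 left out, the comparison below called 1229 transcripts, 440 higher and 789 lower, in place of 1173. The vehicle libraries stood apart in one respect, described below: all 5 held traces of transcripts that are abundant in hepatocytes. The 100 most abundant transcripts took 23.4% ± 0.494 (SD, n = 5) of the transcript counts at the low dose and 22.6% ± 0.0971 (SD, n = 5) in vehicle cells. The exact two-sided permutation test gave p = 0.00794, the smallest that 5 against 5 libraries allow, and 0.0238 after Benjamini-Hochberg adjustment over 3 such values. The share of counts on transcripts (adjusted p = 0.119, exact permutation test) and the number of transcripts detected (adjusted p = 0.175, exact permutation test) did not pass.

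Between low-dose and vehicle cells at 9 h, 1173 of 17535 transcripts tested differed (6.69%), and most of them were lower at the low dose. Of these differentially expressed transcripts (DEGs), 399 were higher at the low dose (2.28% of those tested) and 774 were lower (4.41%). To be called, a transcript needed an adjusted p no higher than 0.05 and a change of 0.41 or more on the natural-log scale, which is a 1.51-fold change or 0.59 on the log2 scale. The median log2 fold change was 0.89 for the DEGs that rose, with quartiles of 0.72 and 1.17, and -0.93 for those that fell, with quartiles of -1.26 and -0.72. Over all transcripts tested the median was -0.0038. Another 3910 transcripts passed the test on p but changed by less than the fold threshold, and here the directions were nearer to even, with 2102 higher and 1808 lower. Transcripts at an unadjusted p under 0.05 numbered 6867, or 39.2% of those tested.

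Most changes were modest in size. A log2 fold change under 1 in size was found for 246 of the higher and 446 of the lower DEGs. Between 1 and 2 there were 406, of which 273 were lower. Only 20 DEGs rose by 4-fold or more, and 55 fell by that much. The DEGs that fell included the more abundant transcripts. Summed over the 774 lower DEGs, the level was between 32889 and 33327 CPM in the 5 vehicle libraries and between 17205 and 18348 CPM in the 5 low-dose libraries. Summed over the 399 higher DEGs it went from between 4041 and 4214 CPM to between 7085 and 8144 CPM. These sums describe transcripts chosen by the same comparison, and no test is given for them.

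**Figure D1:**
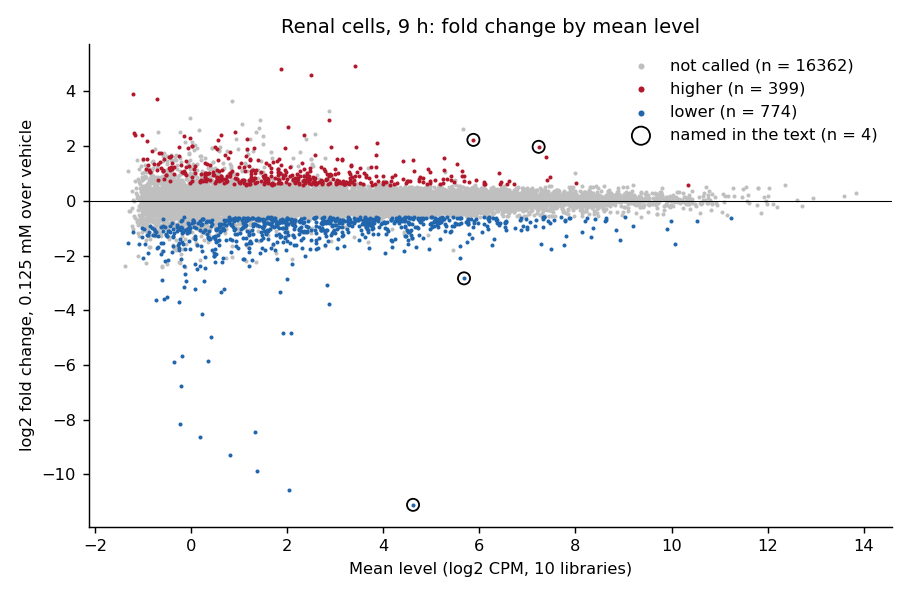
The log2 fold change of each of the 17535 transcripts tested (low dose over vehicle, 9 h) is plotted against its mean level in log2 CPM over the 10 libraries, with the 399 higher DEGs in red, the 774 lower DEGs in blue and the others in grey. Circles mark the 4 transcripts described by library, and every point more than 5 units from 0 is a lower DEG, the largest rise being 4.93.

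The share of transcripts called depended on how abundant they were. It was 9.6% among the 1584 transcripts with a mean log2 CPM of 0 or less, 13.2% among the 3085 between 0 and 2, and 8.16% among the 4190 between 2 and 4. It was 3.42% among the 5469 transcripts between 4 and 6 and 2.68% among the 3207 above 6. The share of called transcripts that were higher went down with abundance, from 36.2%, 38.4% and 37.7% in the 3 classes up to a log2 CPM of 4 to 23.5% and 17.4% in the next ones. At the top, 71 of the 86 DEGs above a log2 CPM of 6 were lower at the low dose. Length mattered less: of 5 classes of equal size, 5.84% were called in that of the shortest transcripts and 7.82% in that of the longest. Among the longest 27.4% of the DEGs were higher, against 39.5% among the shortest. The DEGs that fell had a median length of 2527 bases and those that rose 2183 bases, the same as over all transcripts tested. The part of read depth and transcript length in these shares was not tested.

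**Figure D2:**
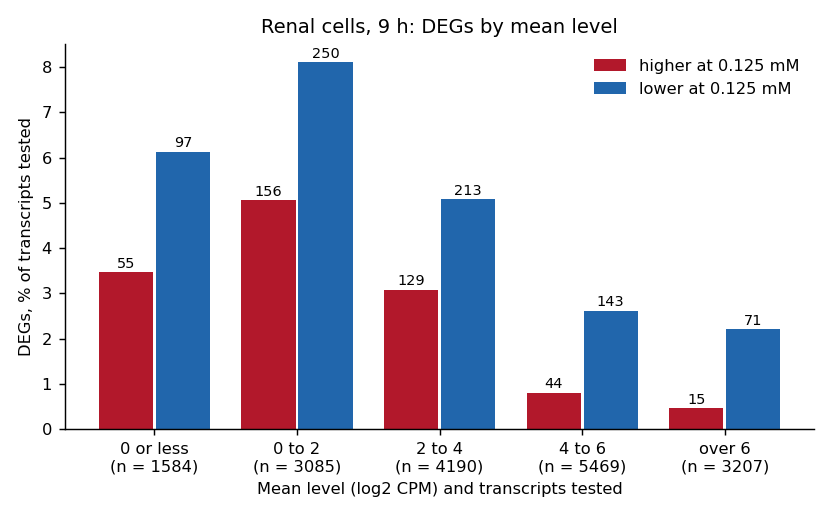
Bars give the percentage of transcripts tested that were called higher (red) or lower (blue) at 0.125 mM, in 5 classes of mean log2 CPM, with the number of DEGs above each bar and the number tested under each class. The lower DEGs outnumber the higher ones in every class, with 250 of the 406 DEGs between 0 and 2 and 71 of the 86 above 6.

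For 4096 transcripts (23.4% of those tested) the 5 low-dose libraries all lay on one side of the 5 vehicle libraries, 1987 of them above (11.3%) and 2109 below (12%). Among the DEGs this held for 338 of the 399 that rose and 683 of the 774 that fell. The calls were also read in a low-dose library that had not been used to make them, against the same 5 vehicle libraries that had. When each low-dose library was left out in turn, between 1124 and 1229 transcripts were called from the rest. Of those called higher, between 88.8% and 92.6% lay above all 5 vehicle libraries in libraries MS-126 to MS-129, and 81.6% did so in library MS-130. Of those called lower, between 91.5% and 93.4% lay below all 5 vehicle libraries. Over all transcripts tested, the same shares were 28.6% to 33.5% above and 29.4% to 34.5% below. Since the calls and the reading share their vehicle libraries, calls with no true change could also reach high shares. The shares over all transcripts tested are no baseline for that, and all of these shares are a description. In library MS-130, 26 calls made from the others lay beyond all 5 vehicle libraries in the opposite direction, and in each of the other low-dose libraries 2 to 11 did.

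Estimated counts are whole numbers where no read was shared with another transcript. That was the case in all 10 libraries for 7208 of the transcripts tested (41.1%) and for 552 of the DEGs (47.1%), counting values within 1e-06 of a whole number as whole. For the remaining DEGs, reads were divided among transcripts of the same gene or of similar genes, and a change in one of them can be a change in how reads were divided. The tables also list genomic intervals. Fitted together with the transcripts, 348 of 6267 intervals were called at 9 h (5.55%), as many higher (2.78%) as lower (2.78%).

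The 2 transcripts that rose most were taken among DEGs whose groups did not overlap and whose log2 CPM averaged 3 or more. ENSRNOT00000065584, of 1305 bases, was at 5.01, 30.6, 17.2, 21.5 and 28.3 CPM in the 5 vehicle libraries. It was at 178.5, 54.3, 109.3, 67.6 and 74.2 CPM in the 5 low-dose libraries. All low-dose values lay above all vehicle values, but the libraries of each group differed widely, and vehicle library MS-121 was far under the other 4. The log2 fold change was 2.23 ± 0.42 (SE, n = 5 per group, adjusted p = 0.00219). Its estimated counts were not whole numbers, so it shares reads with other transcripts. Without low-dose library MS-126, the highest, the log2 fold change was 1.88.

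ENSRNOT00000009573, of 3914 bases, rose with little spread. Its estimated counts were not whole numbers either, so it too shares reads with other transcripts. Its level was 62.01, 62.2, 59.9, 62.9 and 58.1 CPM in the vehicle libraries and 263, 225, 225, 233 and 254 CPM in the low-dose libraries. The low-dose libraries were all more than 3 times as high as the vehicle libraries, and the log2 fold change was 1.97 ± 0.05 (SE, n = 5 per group, adjusted p = 5.14e-10).

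ENSRNOT00000007790, of 1561 bases, fell with little spread. It was at 89.6, 86.4, 88.9, 94.9 and 88.7 CPM in the vehicle libraries. At the low dose it was at 12.2, 12.5, 11.9, 13.8 and 12.5 CPM. The groups were far apart and each varied little, with a log2 fold change of -2.83 ± 0.04 (SE, n = 5 per group, adjusted p = 1.19e-11), so that vehicle cells held 7.13 times the level of exposed cells. All its estimated counts in these libraries were whole.

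ENSRNOT00000003921, of 2069 bases, had the largest fall of all transcripts tested. It was at 35.5, 49.4, 20.5, 118.04 and 20.1 CPM in the vehicle libraries, the highest being library MS-124. At the low dose it had 0, 1, 0, 0 and 1 estimated counts. Altogether the vehicle libraries held 6339 counts and the low-dose libraries 2. Scaled for library size, the ratio was 3015, with an exact 95% interval of 834 to 24901 that covers counting error only. Library MS-124 held 3380 of the vehicle counts, and without it the ratio was 1829 (exact 95% interval 506 to 15110). The test gave an adjusted p of 2.02e-05, but in limma with library weights the adjusted p was 0.131 and the call was lost, with a log2 fold change of -10.33 beside -11.11 in edgeR. Since the transcript could pass the filter on low counts only through the vehicle group, its p-values are a description. The same transcript was at 28661 ± 2240 CPM (SD, n = 5) in vehicle hepatocytes at 9 h, and its mean in the other renal groups was at most 0.176 CPM.

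**Figure D3:**
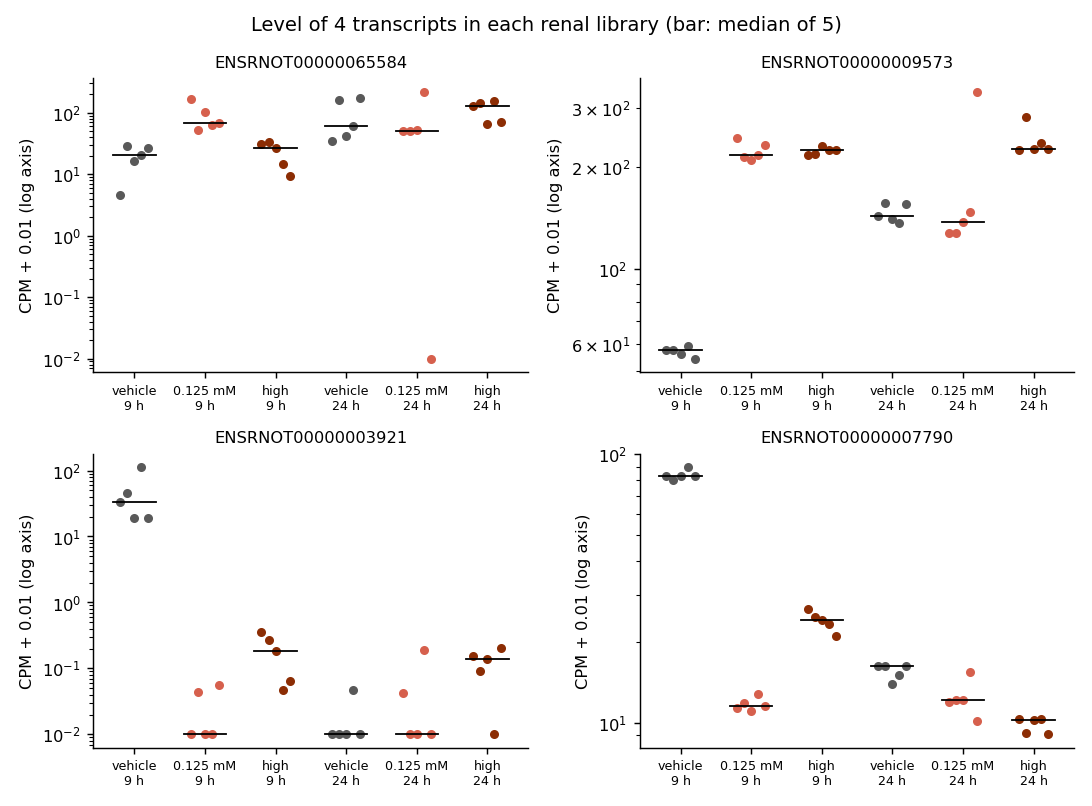
Each panel shows 1 transcript, with a point for each renal library (CPM plus 0.01, log axis) and a bar at the median of the 5 libraries of a group. In the panels of ENSRNOT00000003921 and ENSRNOT00000007790 the 5 vehicle libraries at 9 h lie above the libraries of all other groups, and in that of ENSRNOT00000009573 they lie below them.

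Transcripts that are abundant in hepatocytes were found in the vehicle libraries of the comparison. After the levels of ENSRNOT00000003921 were seen, a list was made of the 32 transcripts with at least 500 CPM in vehicle hepatocytes at 9 h and under 0.5 CPM on average in each of the 4 renal groups outside the comparison. In hepatocytes their levels ran from 536 to 28661 CPM. Summed over the list, the 5 renal vehicle libraries at 9 h (MS-121 to MS-125) reached 0.0971%, 0.142%, 0.0614%, 0.338% and 0.0544% of the hepatocyte level. The 5 low-dose libraries reached between 0.00149% and 0.00331%, and the 20 libraries of the other renal groups between 0.00068% and 0.0038%. All 5 vehicle libraries lay above all 5 low-dose libraries, with library MS-124 the highest. The low values in the other 20 renal libraries follow from how the list was made, and only the 10 libraries of the comparison were free to differ. In the 5 vehicle libraries 0 or 1 of the 32 transcripts was at 0, against 20 to 26 in the low-dose libraries. Of the 32, 16 passed the filter on low counts, and since they could do so only through the vehicle group, they had to differ. All 16 were among the lower DEGs.

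**Figure D4:**
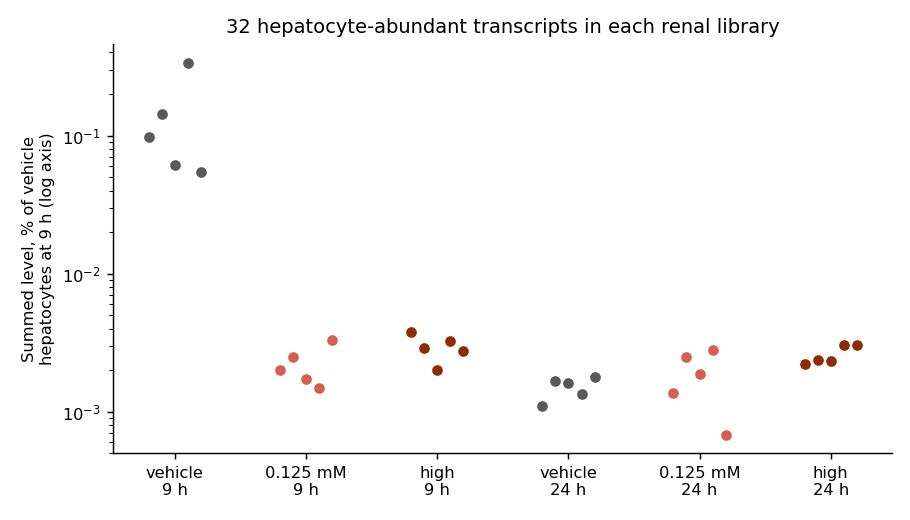
Each point is 1 renal library, and its height is the summed level of the 32 hepatocyte-abundant transcripts as a percentage of their summed level in vehicle hepatocytes at 9 h, on a log axis. The 5 vehicle libraries at 9 h lie between 0.0544% and 0.338%, and the 5 low-dose libraries at 9 h at 0.00331% or less; the low values of the other 20 libraries follow from how the list was made.

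A wider list held 461 transcripts that were at least 20 times as abundant in vehicle hepatocytes at 9 h as on average in those 4 renal groups, and at least 20 CPM in the hepatocytes. Of these, 192 were tested. They included 44 lower DEGs, 22.9% of those tested beside 4.41% over all transcripts, and 17 higher DEGs, 8.85% beside 2.28%. Members of this list could pass the filter on low counts through the vehicle group alone, so these shares are a description. The 44 made up 5.68% of all lower DEGs. Among the 55 transcripts that fell by 4-fold or more, 23 were on this list, and among the 20 that rose by that much, 0 were. With the wider list left out of the fit, 1114 DEGs were called, 382 higher and 732 lower. Among the named transcripts, ENSRNOT00000003921 is on both lists. ENSRNOT00000007790 is on neither, being at 0.372 ± 0.0924 CPM (SD, n = 5) in vehicle hepatocytes at 9 h. What brought these transcripts into the vehicle libraries was not tested.

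The DEGs of 9 h were then followed in the 24 h libraries, which share no library with the 9 h comparison. The low dose at 24 h gave 11 DEGs of 17684 transcripts tested (0.0622%), 8 higher (0.0452%) and 3 lower (0.017%), and 6.33% had an unadjusted p under 0.05. Of the 399 transcripts higher at 9 h, 394 were tested at 24 h, 4 were called higher and 0 lower. Their median log2 fold change was -0.0096, beside -0.0012 over all transcripts tested. Of the 774 lower at 9 h, 728 were tested, 2 were called lower and 0 higher, and the median was -0.095. In this set 36.8% had a log2 fold change above 0, beside 49.8% over all transcripts tested and 49.0% in the set that rose at 9 h, and 79 fell against 27 that rose at an unadjusted p under 0.05 (10.9% and 3.71%, beside 3.29% and 3.05% over all transcripts tested). For the set that rose at 9 h the same counts were 31 higher (7.87%) and 25 lower (6.35%). The 24 h calls hung on single libraries. Low-dose library MS-145 at 24 h held 15078809 counts, with 46.4% of its transcript counts on its 100 most abundant transcripts, and without it 53 DEGs were called. Then 10 of the set higher at 9 h were called higher and 3 lower, and of the set lower at 9 h 4 were called lower and 2 higher. The medians of the 2 sets were then -0.028 and -0.063. Over all 24 h libraries left out in turn, the first median ran from -0.030 to 0.00034, above 0 only without MS-140, and the second from -0.13, without MS-142, to -0.063. Without library MS-139 the number was 4, and without library MS-136, MS-137, MS-138, MS-140, MS-142, MS-143 or MS-144 it was 6 or 7.

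The test of the difference itself found 645 of 18454 transcripts (3.5%) whose low-dose fold change differed between 9 h and 24 h, 260 with the larger value at 9 h (1.41%) and 385 with the smaller (2.09%). ENSRNOT00000009573 had a log2 fold change at 24 h of 0.30 ± 0.30 (SE, n = 5 per group, adjusted p = 0.824), and the 9 h value exceeded the 24 h value by 1.70 (SE 0.32, adjusted p = 0.00223). In low-dose library MS-145 it stood at 334 CPM, against 127.8 to 147.7 CPM in the other 4, and without that library the 24 h value turned to -0.14 (adjusted p = 0.516) and the difference was 2.13 (adjusted p = 1.77e-11). ENSRNOT00000007790 had a 24 h value of -0.32 ± 0.11 (SE, n = 5 per group, adjusted p = 0.575) and a difference of -2.50 (SE 0.11, adjusted p = 5.85e-11). For ENSRNOT00000065584 the difference of 2.60 did not pass (SE 1.12, adjusted p = 0.244).

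For the named transcripts given here, and for the medians of the sets called at 9 h, levels in vehicle cells differed between 9 h and 24 h. ENSRNOT00000007790 was at 83.8 ± 3.41 CPM (SD, n = 5) in vehicle cells at 9 h and 15.6 ± 1.08 CPM (SD, n = 5) in vehicle cells at 24 h, near the 11.7 ± 0.676 CPM (SD, n = 5) of low-dose cells at 9 h. These levels, and those that follow, are scaled over all 18 groups together and so differ slightly from the library values above. ENSRNOT00000009573 was at 57.0 ± 1.91 CPM (SD, n = 5) in vehicle cells at 9 h, 146.7 ± 9.02 CPM (SD, n = 5) in vehicle cells at 24 h and 223 ± 14.5 CPM (SD, n = 5) in low-dose cells at 9 h. The median level of the transcripts higher at 9 h was 2.25 CPM in vehicle cells and 4.43 CPM in low-dose cells at 9 h, and 4.59 and 4.36 CPM in vehicle and low-dose cells at 24 h. The median of those lower was 6.43 and 2.95 CPM at 9 h and 3.88 and 3.83 CPM at 24 h. In high-dose cells the median of those higher was 3.84 CPM at 9 h and 3.72 CPM at 24 h. The median of those lower was 3.09 and 2.55 CPM there. Over all transcripts tested the median stayed between 13.9 and 14.6 CPM in the 6 renal groups. The vehicle and low-dose levels at 9 h chose these sets, so only the levels of the other groups are independent of the choice. Any difference from the 9 h vehicle level is not, and no test is given. Whether time or another feature of the vehicle libraries at 9 h lay behind these differences was not tested.

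**Figure D5:**
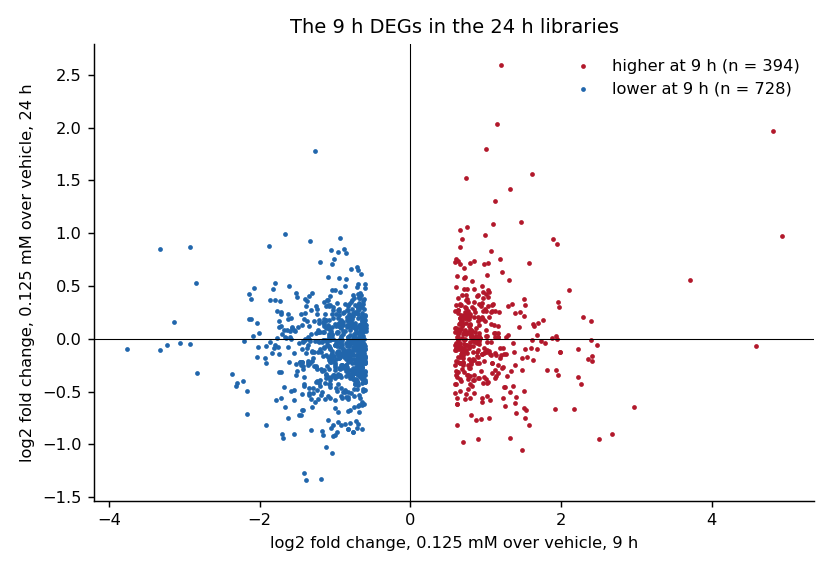
Each point is a 9 h DEG that was also tested at 24 h, 394 higher (red) and 728 lower (blue), with its log2 fold change (low dose over vehicle) at 9 h on the horizontal axis and at 24 h on the vertical axis. The red points lie around 0 on the vertical axis, with a median of -0.0096, and the blue points slightly below it, with a median of -0.095.

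At 9 h the higher dose of 0.500 mM was compared with the same vehicle libraries, so values are given side by side only. The 399 transcripts higher at the low dose had a median log2 fold change of 0.73 at the high dose over the 389 tested, and the 774 lower ones a median of -1.07. The high dose gave 3403 DEGs of 17814 transcripts tested (19.1%). The named transcripts took different courses with dose. ENSRNOT00000009573 had log2 fold changes of 1.97 at the low and 1.99 at the high dose, and the direct comparison of the doses gave 0.02 (SE 0.05, adjusted p = 0.764). ENSRNOT00000007790 was lower at the low dose than at the high dose: the fall was -2.83 at the low and -1.78 at the high dose, and the doses differed by 1.05 (SE 0.07, adjusted p = 4.70e-07). ENSRNOT00000065584 had a high-dose value of 0.26 ± 0.42 (SE, n = 5 per group, adjusted p = 0.623), and was lower at the high than at the low dose by -1.97 on the log2 scale (SE 0.40, adjusted p = 0.00182). In all, 2249 of 17641 transcripts (12.7%) differed between the doses, 1099 higher at the high dose (6.23%) and 1150 lower (6.52%).

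Hepatocytes received the same 0.125 mM for the same 9 h, as the higher of their doses, in another medium. They gave 3062 DEGs of 16607 transcripts tested (18.4%), 8.48% higher and 9.95% lower. Of the 399 transcripts that rose in renal cells, 226 were tested in hepatocytes, where 28 rose and 39 fell. Of the 774 that fell in renal cells, 438 were tested, where 72 fell and 78 rose. The share called was 29.6% in the first set and 34.2% in the second. The transcripts that rose in both cell types were 12.4% of the renal and 2.31% of the hepatocyte DEGs that rose, counted over transcripts tested in both, and those that fell in both were 16.4% and 4.97%. Of the 217 transcripts called in both cell types, 100 changed in the same direction in both and the rest in opposite directions.

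The direct test of the difference found 3723 of 19361 transcripts (19.2%) whose response to 0.125 mM at 9 h differed between renal cells and hepatocytes, 8.98% with the larger value in renal cells and 10.2% with the smaller. ENSRNOT00000009573 rose in both, from 6.72 ± 0.737 to 19.8 ± 1.84 CPM (SD, n = 5) in hepatocytes, a log2 fold change of 1.60 ± 0.10 (SE, n = 5 per group, adjusted p = 3.31e-07). The renal value was higher by 0.38 (SE 0.11, adjusted p = 0.00728). ENSRNOT00000007790 moved in opposite directions. In hepatocytes its level was low, at 0.372 ± 0.0924 CPM in vehicle and 0.831 ± 0.176 CPM in exposed cells (SD, n = 5), and its log2 fold change there was 1.20 ± 0.27 (SE, n = 5 per group, adjusted p = 0.00289). The difference between the cell types was -4.06 (SE 0.18, adjusted p = 2.13e-12).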

How the data were processed

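Poly-A RNA of cultured rat cells was sequenced as paired reads from stranded libraries. The files deposited by the authors give, for every target, kallisto's estimated counts and TPM (version 0.42.4, Rnor_6.0, per the labels); a read shared by several transcripts is divided among them. Each table holds 65166 targets: 40071 transcripts, analysed here, and 25095 genomic intervals, which were left out of the main test. The Sleuth fits of the study were not used here. The planned gene lists and cell type markers could not be scored, because 0 identifiers matched the RefSeq gene table (GRCr8). No sequences are given for the same reason.

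Counts were rounded, then tested with edgeR 4.0.16 under R 4.3.3 (TMM, filterByExpr, estimateDisp, glmQLFit, glmQLFTest), with Benjamini-Hochberg adjustment over all transcripts tested. Only the groups compared entered each fit, and differences of responses were tested as interaction terms. The SE is the size of the log2 fold change divided by the square root of F. Named transcripts were the 2 DEGs with the largest rise and the 2 with the largest fall whose groups did not overlap and whose log2 CPM averaged 3 or more. The members of the comparison and the lists were chosen with earlier results of these data known. No 2 tables were identical.

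The alternatives were DESeq2 1.42.0, limma 3.58.1 on log2(CPM + 0.5) and with library weights, upper-quartile scaling, other filters and fold thresholds, other sets of features and of groups in the fit, log2(TPM + 1), and each library left out in turn. Leaving out hepatocyte-abundant transcripts was added after the data were seen. On simulated counts with the library sizes of this comparison, 134 of 200 changed transcripts and 119 of 150 changed by 2-fold or more were recovered, with 4 unchanged ones called, among 17197 transcripts. For the interaction of low dose and time, 96 of 200 and 89 of 150 were recovered, with 6 unchanged ones called, among 18133 transcripts. The simulated data held fewer changed transcripts than were called at 9 h.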

Additional observations from a re-analysis of the deposited data

Results flagged for a closer look

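Low-dose library MS-130 at 9 h detected 20449 transcripts, far enough below the other 4 that the gap took up 0.742 of the range of the group. The same check was made on 18 sets of 5 libraries, and chance sets apart about 1 in 20.

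In the interaction test of the response to the low dose at 9 h and 24 h, 3 named transcripts were called. The difference in log2 fold change, 9 h less 24 h, was 1.70 for ENSRNOT00000009573 (adjusted p = 0.00223) and -2.50 for ENSRNOT00000007790 (adjusted p = 5.85e-11). For ENSRNOT00000003921 it was -13.02 (adjusted p = 0.00314), a value that depends on the small count added by the fit, since nearly all its renal libraries outside the vehicle group at 9 h were at or near 0. Without low-dose library MS-144 at 24 h it was -11.22 (adjusted p = 0.26), so this call rests on that library.

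The same 3 transcripts were called in the interaction test of the response to 0.125 mM at 9 h in renal cells and in hepatocytes. The renal value less the hepatocyte value was 0.38 for ENSRNOT00000009573 (adjusted p = 0.00728), -4.06 for ENSRNOT00000007790 (adjusted p = 2.13e-12) and -11.51 for ENSRNOT00000003921 (adjusted p = 2.42e-08). The last of these again depends on the added count in renal cells. Its renal part rests on the vehicle libraries that held traces of hepatocyte-abundant transcripts, so no difference in response is read from it. In vehicle hepatocytes ENSRNOT00000003921 was at 28661 ± 2240 CPM and in exposed ones at 37234 ± 1953 CPM (SD, n = 5), higher by 0.41 on the log2 scale (adjusted p = 7.87e-06).

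The deposited tables also hold genomic intervals that the comparison did not use. Fitted together with the transcripts at 9 h, 2.78% of the 6267 intervals tested were higher at the low dose, and as many were lower. The sources used here do not say what these intervals are.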

How the results depend on the processing

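No paired analysis was possible because the library numbers in the labels are not shared between groups. The count of DEGs at 9 h was 1173, 399 higher and 774 lower. A separate fit of the 7216 transcripts with whole counts called 605 (205 and 400). Dropping the fold threshold gave 5083 (2501 and 2582), so that the share that rose went from 34% to 49.2%, and a fold change of at least 2 gave 481, of which 328 were lower. As shares of the transcripts tested these were 14.3% higher and 14.7% lower, and 0.873% and 1.87%. Without a filter on low counts 2.94% were lower, since 28056 transcripts were then tested. The other tools, filters and scalings gave 1044 to 1272, and all renal groups in one fit gave 1027. With each library left out, the total ran from 1092 to 1229, the higher ones from 364 to 440 and the lower ones from 709 to 793. Transcripts whose groups did not overlap numbered 2132 in place of 4096 when only those with whole counts were used.

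The 11 DEGs of the low dose at 24 h were 63 with DESeq2 and 4 at a fold change of at least 2, and ran from 4 to 53 with each library left out. DESeq2 then called 8 of the transcripts higher at 9 h higher and 6 lower, and 7 of those lower at 9 h lower and 2 higher. Without a fold threshold the doses differed for 8011 transcripts in place of 2249, the times for 1039 in place of 645 and the cell types for 7448 in place of 3723. At a fold change of at least 2 these were 809, 331 and 1955. With each library left out they ran from 2108 to 2371, from 560 to 884 and from 3554 to 3892.

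The 4 named transcripts kept their direction under the alternatives run for them: DESeq2, both limma fits, upper-quartile scaling, no filter, all renal groups, intervals included, log2(TPM + 1) and each library left out. ENSRNOT00000003921 did not pass with library weights (adjusted p = 0.131, log2 fold change -10.33), and its log2 fold change went from -11.11 to -6.24 on log2(CPM + 0.5) and -4.79 on log2(TPM + 1). The median size of a called log2 fold change was 1.24 among transcripts at a mean log2 CPM of 0 or less and 0.74 among those above 6. The part of depth in what could be called was not tested.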
